A study of Mus musculus with 31 samples.

Results

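The 10 genes described here encode apolipoproteins of the liver: *Apoa1*, *Apoa2*, *Apoa4*, *Apoa5*, *Apob*, *Apoc1*, *Apoc2*, *Apoc3*, *Apoe* and *Apoh*. They were found by symbol among the 31172 genes measured, and all 10 were measured in each of 31 mice. Apolipoproteins are the protein part of lipoproteins, the particles that carry triglycerides and cholesterol through the blood. Some are structural, some are recognised by receptors that clear the particles, and some switch lipases and other plasma enzymes on or off. Hepatocytes make most of the circulating apolipoproteins, with the intestine as the other main source.

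The mice were *hFIX-R29X* mice, a hemophilia B model that lacks mouse factor IX and carries a human factor IX minigene with a nonsense mutation, driven by the human transthyretin promoter, which is active in the liver. All were 8 to 14 weeks old, and liver RNA of each mouse was sequenced separately. An antisense oligonucleotide (ASO) against *Upf3b*, which encodes a factor of nonsense-mediated mRNA decay, was joined to GalNAc, a sugar ligand taken up by hepatocytes through the asialoglycoprotein receptor. DPBS was injected into 6 females and 5 males. *Upf3b*-GalNAc-ASO went to 2 females and 3 males at 10 mg/kg and to another 2 females and 3 males at 20 mg/kg. Control-GalNAc-ASO went to 2 females and 2 males at 15 mg/kg and to 3 females and 3 males at 20 mg/kg. The control ASO is a scrambled sequence. The mice received 6 subcutaneous doses, one every 5 days by the protocol although the dose entry of the labels calls the dosing weekly, and were sacrificed 48 h after the last. The 10 mg/kg dose of *Upf3b*-GalNAc-ASO has no control ASO group at its own dose, so it was set against the 15 mg/kg control, and dose and ASO cannot be told apart in that comparison.

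Values are in TPM, which here were reads scaled to the library total and not divided by transcript length, so levels are compared between mice for 1 gene and not between genes. By estimate from the spacing of the TPM values, the libraries held 1020676 to 7391615 reads, with a median of 3627941. The average depth that the paper states is higher. The smallest, the library labelled *Upf3b*-GalNAc-ASO at 10 mg/kg replicate 3, also had the lowest median correlation with the other mice of its group (r = 0.677, against up to 0.897). *Upf3b* itself was 97.3 ± 33.2 TPM (SD, n = 11) with DPBS and 57.8 ± 22.1 TPM (SD, n = 4) with the 15 mg/kg control. It was 21.5 ± 20.0 TPM (SD, n = 5) with *Upf3b*-GalNAc-ASO at 10 mg/kg, a log2 difference from that control of -1.73 that did not pass the test (adjusted p = 0.211), while against DPBS it fell by 2.57 (adjusted p = 0.00455). In the library labelled replicate 3 of that group *Upf3b* was at 53.7 TPM, within the 27.1 to 78.7 TPM of the 15 mg/kg controls, and the other 4 treated mice were at 3.95 to 23.3 TPM. Its target level thus went against its label. Its level of *Lipc*, a gene described below, went with the label, at 0.980 TPM on 1 read. The 15 mg/kg controls were at 60.8 to 107 TPM of *Lipc*. Differences of the 10 genes from the 15 mg/kg control are given with and without this library. The lists of other genes at 10 mg/kg are given with it only. Without it the *Upf3b* difference from the 15 mg/kg control was -2.22 (adjusted p = 0.0597). It was 111 ± 21.8 TPM (SD, n = 6) with the 20 mg/kg control and 7.80 ± 5.82 TPM (SD, n = 5) with *Upf3b*-GalNAc-ASO at 20 mg/kg, and fell by 3.87 on the log2 scale (adjusted p = 1.59e-05). In *Upf3b*-GalNAc-ASO at 20 mg/kg replicate 2 the acute phase gene *Saa1* was at 6181 TPM, where the other 30 mice lay at or under 469.8 TPM.

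*Apoa5* was the apolipoprotein gene that rose with *Upf3b*-GalNAc-ASO at 20 mg/kg against both the control ASO and DPBS. *Apoc2* rose against DPBS, and its difference of 0.98 from the control ASO did not pass the test. *Apoa1*, *Apoa4*, *Apoc1*, *Apoc3* and *Apoh* had differences below 0 from the control ASO at both doses, and none passed. For *Apoa4* at 20 mg/kg the difference was only -0.043. The intervals for *Apoa1*, *Apoa2*, *Apob*, *Apoc1* and *Apoe* included 0. A gene is said to have risen or fallen where limma, fitted to log2(TPM + 1) with a term for sex, gave an adjusted p under 0.05 over all genes tested. Against the control ASO at 20 mg/kg, 1 of the 10 genes was called, where 2.52% of all 9376 genes tested were. At 10 mg/kg, 2 of the 10 and 1446 of all genes had an unadjusted p under 0.05. None (0) of the 10 were called, against a background of 0.295% of 9166 genes. The 27 genes behind that background became 91 without the library labelled replicate 3 of the treated group, with 0 of the 10 called, and ranged from 2 (without control replicate 3) to 431 (without treated replicate 1) over single mice left out. The 236 genes called at 20 mg/kg ranged from 70 (without control replicate 3) to 270 (without treated replicate 2).

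**Figure D1:**
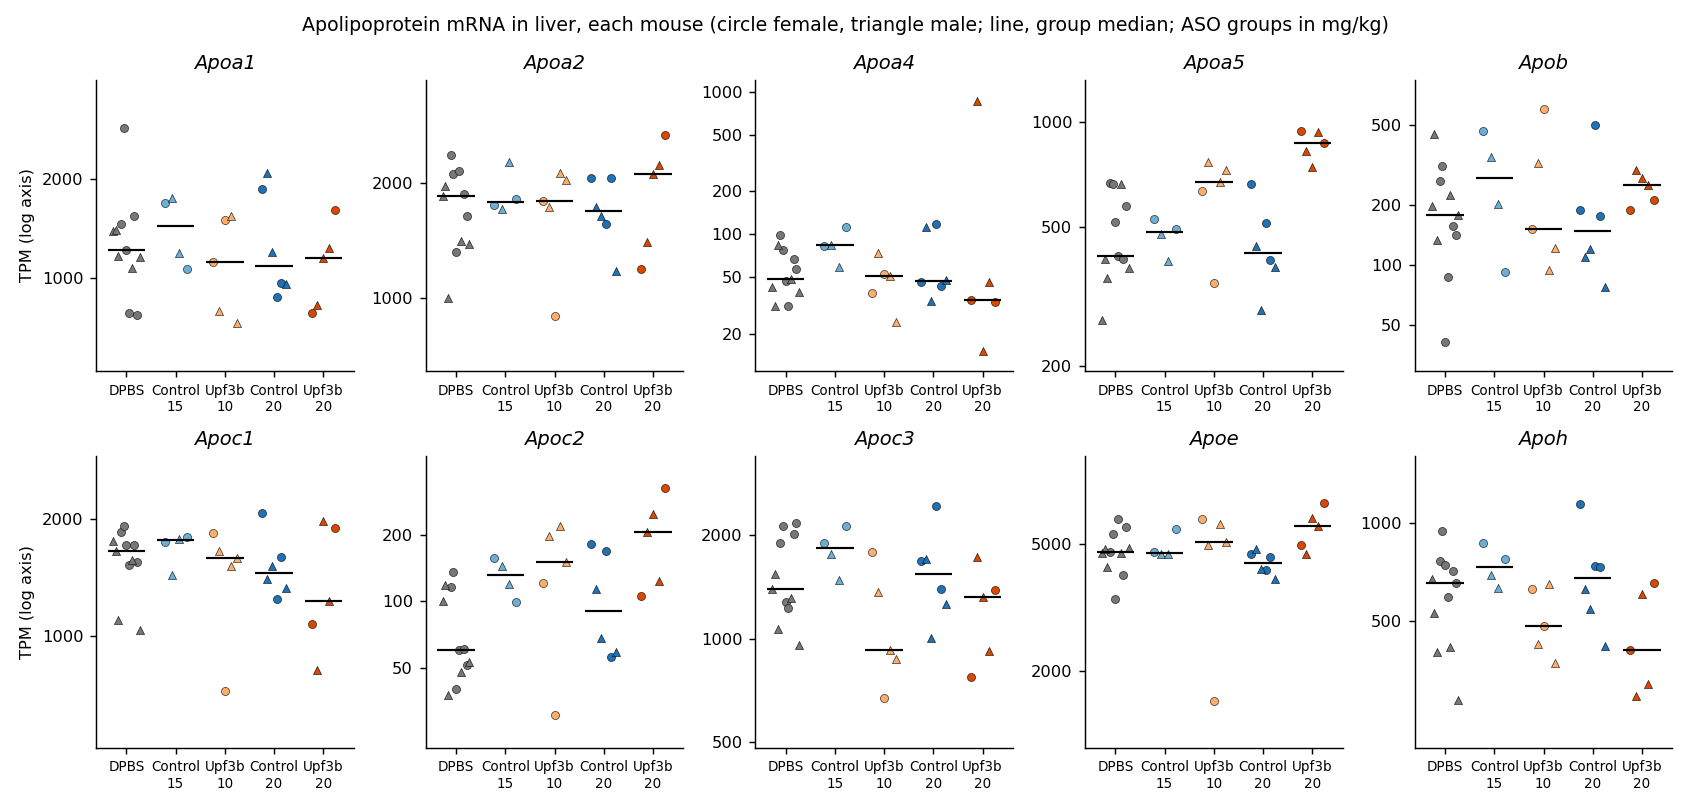
Each point is the level of 1 gene in 1 mouse, in TPM on a log axis, by group, with circles for females, triangles for males and a line at the group median; doses are in mg/kg. The 5 *Apoa5* values at 20 mg/kg of *Upf3b*-GalNAc-ASO, from 741 to 942 TPM, lie above those of every mouse given DPBS or Control-GalNAc-ASO, and 1 *Apoa4* value at 20 mg/kg, 872 TPM, stands far above the rest.

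*Apoa5* encodes apolipoprotein A-V, a scarce plasma protein known to lower plasma triglycerides by aiding lipolysis at the vessel wall, and *Apoc2* encodes the cofactor that lipoprotein lipase needs. *Apoa5* lies in GRCm38 on chromosome 9, bases 46268633 to 46271919 of the plus strand, and has 4 exons. *Apoc2* lies on chromosome 7 from 19671579 to 19677941 on the minus strand and has 5 exons. The promoters of these genes are shown because they are the ones that were called. Each is the 250 bases before the most upstream RefSeq start of the gene (GRCm38.p6), 5′ to 3′ on the strand of the gene, chr9:46268358-46268607 on the plus strand for *Apoa5* and chr7:19677942-19678191 on the minus strand for *Apoc2*. Capitals mark the letters TATAAA, searched on the gene's strand. They also mark, searched on both strands, the nuclear receptor half-site AGGTCA, its variant form GGGTCA, and the E-box letters CACGTG.
Apoa5: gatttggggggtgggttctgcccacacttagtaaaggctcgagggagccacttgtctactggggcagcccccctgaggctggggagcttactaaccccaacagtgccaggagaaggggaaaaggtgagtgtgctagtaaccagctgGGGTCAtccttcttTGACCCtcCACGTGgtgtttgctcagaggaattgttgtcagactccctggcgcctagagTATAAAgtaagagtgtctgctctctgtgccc
Apoc2: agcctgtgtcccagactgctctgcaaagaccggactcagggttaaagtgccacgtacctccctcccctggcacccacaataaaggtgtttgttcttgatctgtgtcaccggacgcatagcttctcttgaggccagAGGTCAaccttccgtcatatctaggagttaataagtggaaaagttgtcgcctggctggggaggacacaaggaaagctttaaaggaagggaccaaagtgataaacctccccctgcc

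In the *Apoa5* window TATAAA, the core of a TATA box, began 31 bases before the start. GGGTCA, a form of the half-site bound by nuclear receptors, began 104 bases before the start, and its reverse complement began 90 bases before it. CACGTG, the E-box bound by basic helix-loop-helix factors, began 82 bases before the start, and none of these matches overlapped another. The *Apoc2* window held AGGTCA, another half-site form, 115 bases before the start and none of the other motifs. Of 32851 RefSeq windows of this length, TATAAA was found in 7.59%, the half-site AGGTCA in 14.0%, its variant GGGTCA in 11.6% and the E-box in 6.02%. Windows were found for 8 of the 10 genes, not for *Apoc1* and *Apoc3*. TATAAA was also in those of *Apoa2* and *Apob*, AGGTCA in that of *Apoh* and GGGTCA in that of *Apoe*.

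*Apoa5* was at 942, 822, 741, 931 and 868 TPM in the 5 mice given *Upf3b*-GalNAc-ASO at 20 mg/kg. The controls at this dose ranged from 289 to 663 TPM (median 421 TPM) and the DPBS mice from 269 to 666 TPM (median 412 TPM). All 5 treated mice lay above the highest mouse of both groups, in females and in males. Of all genes tested, 3.48% had no overlap between the 20 mg/kg groups and 0.804% had none between *Upf3b*-GalNAc-ASO at 20 mg/kg and DPBS, and *Apoa5* was the only one of the 10 in each case.

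The difference of *Apoa5* from the control ASO was 1.01 on the log2 scale (SE 0.23, 95% interval 0.52 to 1.5, adjusted p = 0.0255), and from DPBS it was 0.93 (SE 0.22, 95% interval 0.49 to 1.38, adjusted p = 0.0281). The ratio of the means to the control ASO was 1.92 in all mice, 1.72 in females and 2.24 in males. The call against the control ASO was lost with control replicate 3 left out (0.91, adjusted p = 0.101), with control replicate 5 (0.96, adjusted p = 0.0621), and with treated replicate 1 (1.03, adjusted p = 0.0583) or 5 (0.95, adjusted p = 0.0547). Over all 11 mice left out in turn it lay between 0.91 and 1.10. Against DPBS the call was lost without DPBS replicate 1, 2, 3 or 11 or treated replicate 1, 4, 5 or 6, with values between 0.85 and 0.99 and adjusted p between 0.0501 and 0.0759.

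*Apoa5* at the lower dose was at 632, 767, 345, 669.7 and 726 TPM with *Upf3b*-GalNAc-ASO at 10 mg/kg. The controls at 15 mg/kg were at 525, 477, 397 and 491 TPM. Of the 5 treated mice 4 lay above every control and the library labelled replicate 3 lay below every control. At this dose 0 of the 10 genes had no overlap between the groups, where 4.81% of all genes had none. The difference was 0.34 (SE 0.30, adjusted p = 0.589) with that mouse and 0.58 (adjusted p = 0.210) without it.

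*Apoc2* was at 106, 206, 248, 124 and 324 TPM with *Upf3b*-GalNAc-ASO at 20 mg/kg. The controls at this dose ranged from 55.7 to 182 TPM (median 90.7 TPM) and the DPBS mice from 37.6 to 136 TPM (median 59.96 TPM). The 5 treated mice lay above the median of each group, and 3 of them lay above the highest mouse of each, so the groups overlapped.

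Against DPBS *Apoc2* rose by 1.45 on the log2 scale (SE 0.34, 95% interval 0.75 to 2.15, adjusted p = 0.0293). With *Apoa5* it made 2 of the 10 genes called in that comparison, where 1.13% of all 9078 genes were. Those 103 genes became 56 without treated replicate 6. Against the control ASO the difference was 0.98 (SE 0.36, 95% interval 0.22 to 1.73, adjusted p = 0.152). The control ASO groups were themselves above DPBS for *Apoc2*, by 0.92 (SE 0.33, adjusted p = 0.691) at 15 mg/kg and 0.51 (SE 0.32, adjusted p = 0.592) at 20 mg/kg, neither of which passed. The call against DPBS was lost without treated replicate 2 (1.41, adjusted p = 0.0659), 4 (1.34, adjusted p = 0.0848) or 6 (1.22, adjusted p = 0.182), and without DPBS replicate 3 (1.35, adjusted p = 0.0623), 8 (1.39, adjusted p = 0.0621) or 11 (1.41, adjusted p = 0.0574).

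*Apoc2* at the lower dose was at 120.5, 197, 30.4, 219.7 and 151 TPM with *Upf3b*-GalNAc-ASO and at 157, 144, 120.2 and 99.4 TPM with the control. The library labelled replicate 3 was the lowest of all 31. The difference was -0.19 (SE 0.43, adjusted p = 0.861) with that mouse and turned to 0.31 (adjusted p = 0.604) without it. An annotated locus on the same strand, *Gm44805*, spans *Apoc2* and the neighbouring *Apoc4*, and it was at or under 2.05 TPM in every mouse.

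*Apoc3* encodes an inhibitor of lipoprotein lipase and of the uptake of remnant particles by the liver. With *Upf3b*-GalNAc-ASO at 10 mg/kg it was at 1792, 1369.7, 675, 930.4 and 871 TPM, and with Control-GalNAc-ASO at 15 mg/kg at 1907, 1771, 1483 and 2132 TPM. Of the treated mice 4 lay below every control and replicate 1 lay within them, a difference of -0.75 (SE 0.31, 95% interval -1.42 to -0.077, adjusted p = 0.271). The mice at 20 mg/kg were at 774, 1729, 1321, 924 and 1387 TPM against 1009 to 2432 TPM in the controls, with overlap, and the difference was -0.36 (SE 0.27, adjusted p = 0.501). At that dose *Apoc3* and *Apoc2* had values of opposite sign, and neither was called. At the lower dose, with all mice in the fit, both lay below 0 and neither was called.

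*Apoc1* encodes a small protein known to hinder receptor uptake of remnants and the transfer of cholesteryl esters. Its differences from the control ASO were -0.29 (SE 0.31, adjusted p = 0.660) at the lower dose and -0.17 (SE 0.26, adjusted p = 0.763) at 20 mg/kg. At the lower dose the value rested on the library labelled replicate 3, at 722 TPM the lowest of all 31 mice, and was 0.010 (adjusted p = 0.987) without it.

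*Apob* encodes the structural protein of very low density lipoproteins, a very large protein of which each particle carries a single copy, and *Apoe* encodes a ligand of the receptors that clear remnants. *Apob* was at 187, 299.5, 272, 253 and 211 TPM with *Upf3b*-GalNAc-ASO at 20 mg/kg and from 77.2 to 505 TPM (median 148 TPM) in its controls. All treated mice lay above that median and none above the highest control, replicate 4 at 505 TPM. The difference was 0.64 (SE 0.34, adjusted p = 0.333), with a ratio of means of 0.687 in females and 2.68 in males. The difference at the lower dose was -0.17 (SE 0.56, adjusted p = 0.911), and it was -0.66 (adjusted p = 0.597) without the library labelled replicate 3, which at 605 TPM was the highest of all 31 mice.

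*Apoe* was at 4989, 4663, 6038, 5691 and 6759 TPM with *Upf3b*-GalNAc-ASO at 20 mg/kg. Its controls ranged from 3880.4 to 4824 TPM (median 4367 TPM). Of the 5 treated mice 4 lay above every control and replicate 2 lay within them, a difference of 0.36 (SE 0.20, 95% interval -0.056 to 0.78, adjusted p = 0.343).

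*Apoe* at the lower dose was at 6004, 4982, 1609, 5802 and 5067 TPM with *Upf3b*-GalNAc-ASO and at 4741, 4679, 4672 and 5569 TPM with the control. The value of the library labelled replicate 3 was again the lowest of all 31 mice. The difference was -0.24 (SE 0.35, adjusted p = 0.775) with it and 0.19 (adjusted p = 0.647) without it.

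*Apoa1* and *Apoa2* encode the main proteins of high density lipoproteins, and apolipoprotein A-I is also the activator of the enzyme that esterifies plasma cholesterol. *Apoa1* was 1120.5 ± 335 TPM (SD, n = 5) with *Upf3b*-GalNAc-ASO at 20 mg/kg and 1328 ± 521 TPM (SD, n = 6) in its controls, and the groups overlapped. The difference was -0.22 (95% interval -0.81 to 0.37, adjusted p = 0.719) at 20 mg/kg and -0.34 (95% interval -1.02 to 0.33, adjusted p = 0.607) at the lower dose. *Apoa2* was 1925 ± 614 TPM (SD, n = 5) and 1708 ± 336 TPM (SD, n = 6) at 20 mg/kg, also with overlap. Its difference was 0.15 (95% interval -0.38 to 0.68, adjusted p = 0.790) at 20 mg/kg and -0.23 (95% interval -0.84 to 0.38, adjusted p = 0.715) at the lower dose. All of these intervals included 0.

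*Apoa4* encodes apolipoprotein A-IV, made by intestine and liver and known to rise in the liver with fat load. With *Upf3b*-GalNAc-ASO at 20 mg/kg it was at 34.5, 872, 15.2, 46.4 and 33.4 TPM. Its controls ranged from 33.8 to 117 TPM (median 47.0 TPM). Replicate 2 was far above every other mouse of the study, and the other 4 lay at or below the median of the controls. The fitted difference was -0.043 (SE 0.96, adjusted p = 0.987) with replicate 2 and -0.95 (adjusted p = 0.202) without it, so the value rested on that mouse.

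The mouse with the high *Apoa4* value was the same one with the high *Saa1* value. *Saa1* and *Saa2*, which encode acute phase apolipoproteins, were at 6181 and 12829 TPM in it, and in the other 30 mice *Saa2* was at or under 349 TPM. *Cidec*, which encodes a protein of lipid droplets, was at 63.9 TPM in it and at or under 6.95 TPM in the others. These values moved together in 1 mouse, and their part in the *Apoa4* value was not tested. In the same mouse *Apoa5*, at 822 TPM, lay within the range of its group, and the *Apoa5* difference without this mouse was 0.996 (adjusted p = 0.0199).

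**Figure D2:**
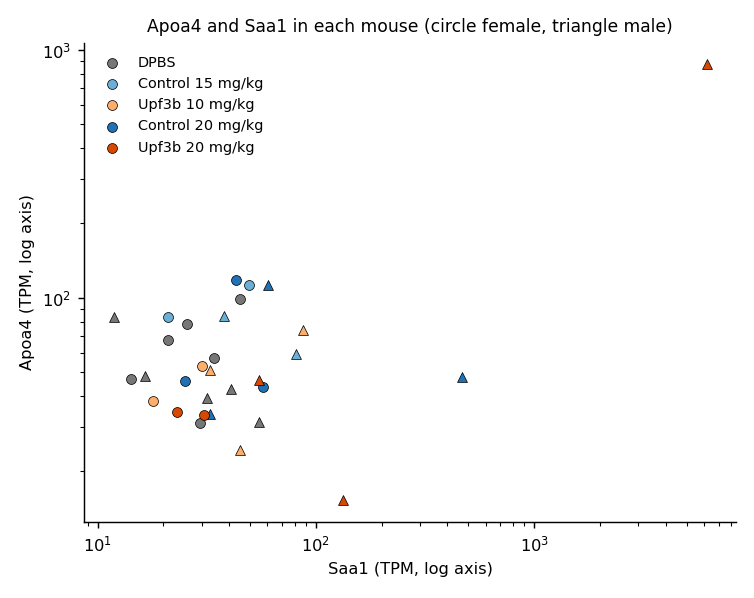
Each point is 1 of the 31 mice, with *Saa1* on the x axis and *Apoa4* on the y axis, both in TPM on log axes, colours for groups, circles for females and triangles for males. One mouse given *Upf3b*-GalNAc-ASO at 20 mg/kg, at 6181 TPM of *Saa1* and 872 TPM of *Apoa4*, lies apart from the other 30.

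*Apoa4* at the lower dose was at 38.3, 73.6, 52.9, 51.2 and 24.2 TPM with *Upf3b*-GalNAc-ASO. The controls at 15 mg/kg were at 83.2, 83.9, 59.0 and 112 TPM. Of the treated mice 4 lay below every control and replicate 2 lay within them, a difference of -0.83 (SE 0.37, 95% interval -1.63 to -0.038, adjusted p = 0.296). These controls were in turn above DPBS by 0.64 (SE 0.30, adjusted p = 0.691), and against DPBS the treated mice differed by -0.19 (SE 0.32, adjusted p = 0.880).

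*Apoh* encodes beta-2-glycoprotein I, a plasma protein that binds anionic phospholipids. With *Upf3b*-GalNAc-ASO at 20 mg/kg it was at 407, 295, 605, 321 and 655 TPM. Its controls lay between 420.5 and 1143 TPM (median 679 TPM). The treated mice all lay below that median and 3 of them lay below every control, a difference of -0.56 (SE 0.26, 95% interval -1.11 to -0.017, adjusted p = 0.254).

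*Apoh* at the lower dose was at 625, 426, 482, 647 and 372 TPM with *Upf3b*-GalNAc-ASO and at 868, 691, 633 and 775 TPM with the control. Of the treated mice 4 lay below every control, with replicate 4 above the lowest one. The difference was -0.53 (SE 0.28, adjusted p = 0.359). Against DPBS the differences were smaller, -0.14 (SE 0.23, adjusted p = 0.883) at 10 mg/kg and -0.33 (SE 0.23, adjusted p = 0.613) at 20 mg/kg.

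**Figure D3:**
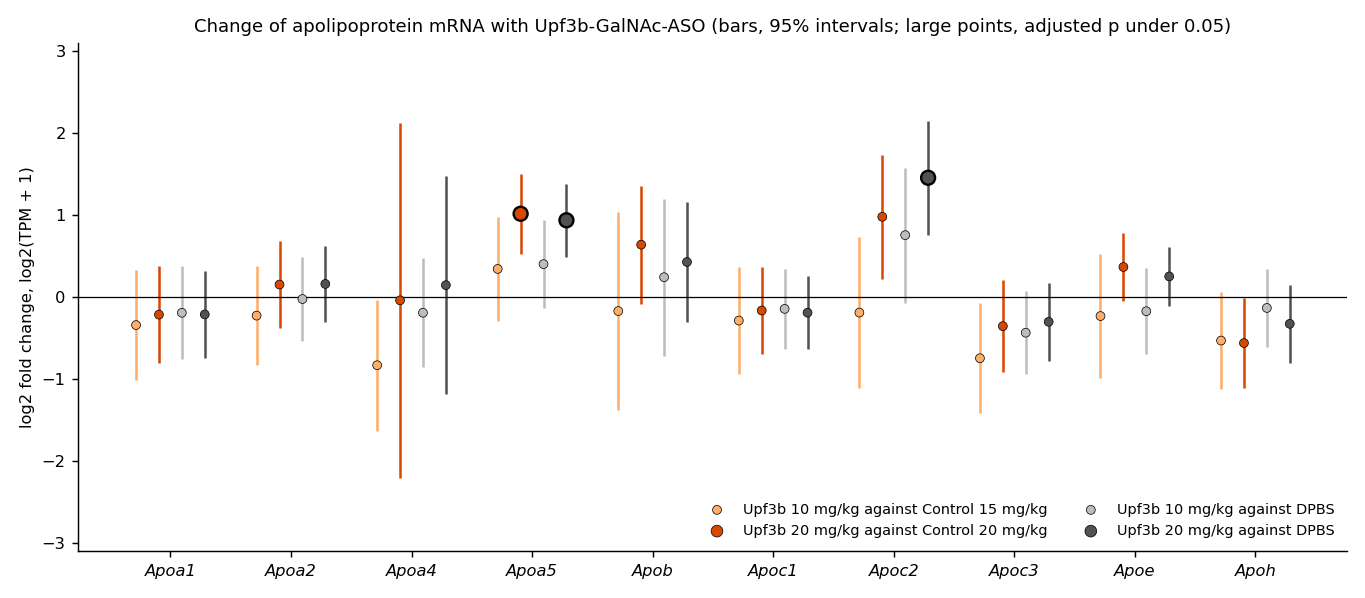
Points are log2 differences on the log2(TPM + 1) scale for the 10 genes in the 4 comparisons of *Upf3b*-GalNAc-ASO, with 95% intervals as bars, and large points mark an adjusted p under 0.05. The large points are *Apoa5* at 20 mg/kg against both controls (1.01 and 0.93) and *Apoc2* at 20 mg/kg against DPBS (1.45), and the interval of *Apoa4* at 20 mg/kg is the widest.

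Over the 10 genes the median difference at the lower dose was -0.26, beside -0.027 over all genes tested, and 9 of the 10 values lay below 0. Without the library labelled replicate 3 the median was -0.23 and 6 of the 10 lay below 0, with *Apoa1* at -0.47, *Apoa2* at -0.0029, *Apoa4* at -0.87, *Apoc3* at -0.48 and *Apoh* at -0.46, none of them called. Its value at 20 mg/kg was 0.053, beside -0.12 over all genes, and 5 of the 10 lay below 0. The comparisons with DPBS share the DPBS mice. At 10 mg/kg against DPBS, 0 of the 10 genes were called (background 0.376% of 9032 genes). An unadjusted p under 0.05 was found for 0 of the 10 and 747 of all genes. The median of the 10 was -0.14, beside 0.034 over all genes, and 0.074 without the library labelled replicate 3. The median at 20 mg/kg against DPBS was 0.15, beside 0.046.

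The difference between the effects at the 2 doses, each against its own control ASO, was tested in 1 fit. None of the 10 genes was called by limma, as of all 9797 genes (0%), and 0 of the 10 and 799 of all genes had an unadjusted p under 0.05. For *Apoa5* the effect at 20 mg/kg was larger by 0.62 (SE 0.37, 95% interval -0.15 to 1.38, adjusted p = 0.671), and for *Apoc2* by 1.04 (SE 0.63, 95% interval -0.24 to 2.33, adjusted p = 0.671). These intervals hold both 0 and changes larger than the effect at 20 mg/kg itself. Without the library labelled replicate 3 of the 10 mg/kg group the 2 values were 0.38 and 0.54.

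The control ASO was set against DPBS to see what the ASO chemistry alone went with. At 15 mg/kg, 0 of the 10 genes were called by limma (background 0% of 8971 genes), with 2 of the 10 (*Apoa4* and *Apoc2*) and 644 of all genes at an unadjusted p under 0.05. All 10 values lay above 0, with a median of 0.23, beside 0.072 over all genes. With the 20 mg/kg control, 0 of the 10 were called (background 0% of 9140 genes), with 0 of the 10 and 905 of all genes at an unadjusted p under 0.05. The median of the 10 was -0.0053, beside 0.15 over all genes. *Apoa5* differed from DPBS by 0.037 (SE 0.22, adjusted p = 0.977) at 15 mg/kg and -0.074 (SE 0.20, adjusted p = 0.914) at 20 mg/kg.

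The sexes were compared among the 11 mice given DPBS. None of the 10 genes was called, where 1.41% of 8998 genes were. An unadjusted p under 0.05 was found for 2 of the 10 and 887 of all genes. *Apoh* was 735 ± 119 TPM (SD, n = 6) in females and 461 ± 146 TPM (SD, n = 5) in males, a difference of males from females of -0.71 (SE 0.23, adjusted p = 0.228). *Apoc3* was 1788 ± 426 TPM (SD, n = 6) in females and 1258 ± 238 TPM (SD, n = 5) in males, a difference of -0.49 (SE 0.22, adjusted p = 0.479). For *Apoh* 1 of the 5 males lay within the range of the females and 4 lay below it, and for *Apoc3* 3 did and 2 lay below.

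The levels were also described over all 31 mice after the group and sex means had been subtracted. Pearson's r was above 0 for 36 of the 45 pairs of the 10 genes. It was highest for *Apoa2* with *Apoc1* (r = 0.77, n = 31) and for *Apoc1* with *Apoh* (r = 0.73, n = 31), and lowest for *Apoa4* with *Apoc1* (r = -0.46, n = 31). *Apoa5* was closest to *Apoe* (r = 0.50) and *Apoc2* (r = 0.50), and its r with *Apoa1* of the same gene cluster was 0.025. The values of a pair come from the same library, so depth, RNA quality and the scaling to the library total are shared. The library labelled replicate 3 at 10 mg/kg was included, the lowest of all 31 for *Apoa2*, *Apoc1*, *Apoc2*, *Apoc3* and *Apoe*. A single mouse can weigh on r, and r without that library was not computed.

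Among 8503 genes, with the 10 themselves left out, those with the pattern most like each gene were picked by the highest r over the same residuals. For *Apoc2* it was *Rpl21* (r = 0.94), for *Apoc1* *F2* (r = 0.91), for *Apoe* *Nup85* (r = 0.87), for *Apoh* *Acaa2* (r = 0.86), for *Apoa2* *Rps16* (r = 0.84) and for *Apoa4* *Pim3* (r = 0.80). For *Apoc3* it was *Naip5* (r = 0.77), for *Apob* *Mrpl51* (r = 0.73), for *Apoa1* *Acsl1* (r = 0.73) and for *Apoa5* *Sap30l* (r = 0.69). Each is the top of many values over 31 mice. The library labelled replicate 3 at 10 mg/kg and the mouse with the high *Apoa4* value were included, and r without them was not computed. Together the 10 genes made up 0.693% to 1.66% of the TPM of a mouse, with a median of 1.28%.

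Several of the 10 genes lie together in the genome (GRCm38). *Apoa1* (46228580 to 46230466, plus strand, 4 exons), *Apoc3* (46232933 to 46235636, minus strand, 4 exons), *Apoa4* (46240696 to 46243459, plus strand, 3 exons) and *Apoa5* span 43.3 kb of chromosome 9. *Apoe* (19696109 to 19699188, minus strand, 4 exons), *Apoc1* (19689481 to 19692660, minus strand, 3 exons) and *Apoc2* span 27.6 kb of chromosome 7 together with *Apoc4*. *Apoa2* lies on chromosome 1 (171225054 to 171226379, plus strand, 4 exons), *Apoh* on chromosome 11 (108343354 to 108414396, plus strand, 8 exons) and *Apob* on chromosome 12 (7977648 to 8016835, plus strand, 29 exons).

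In the chromosome 9 cluster *Apoa5* rose at 20 mg/kg against the control ASO, while *Apoa1*, *Apoc3* and *Apoa4* had values of -0.22, -0.36 and -0.043 that did not pass. Of 4 other protein-coding genes within 100 kb of this cluster, 3 were tested and 0 called, with values from -0.64 to 0.21. In the chromosome 7 cluster *Apoc2*, *Apoe* and *Apoc1* had values of 0.98, 0.36 and -0.17. Of 11 other coding genes within 100 kb, *Apoc4* among them, 8 were tested and 2 were called: *Clptm1* fell by 1.79 (SE 0.46, adjusted p = 0.0446) and *Cblc* rose by 2.89 (SE 0.59, adjusted p = 0.0124). *Apoc4*, next to *Apoc2*, had a value of 0.62 (SE 0.24, adjusted p = 0.168). These neighbours were taken by position after values had been seen, and 2.52% of all genes tested in this comparison were called.

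**Figure D4:**
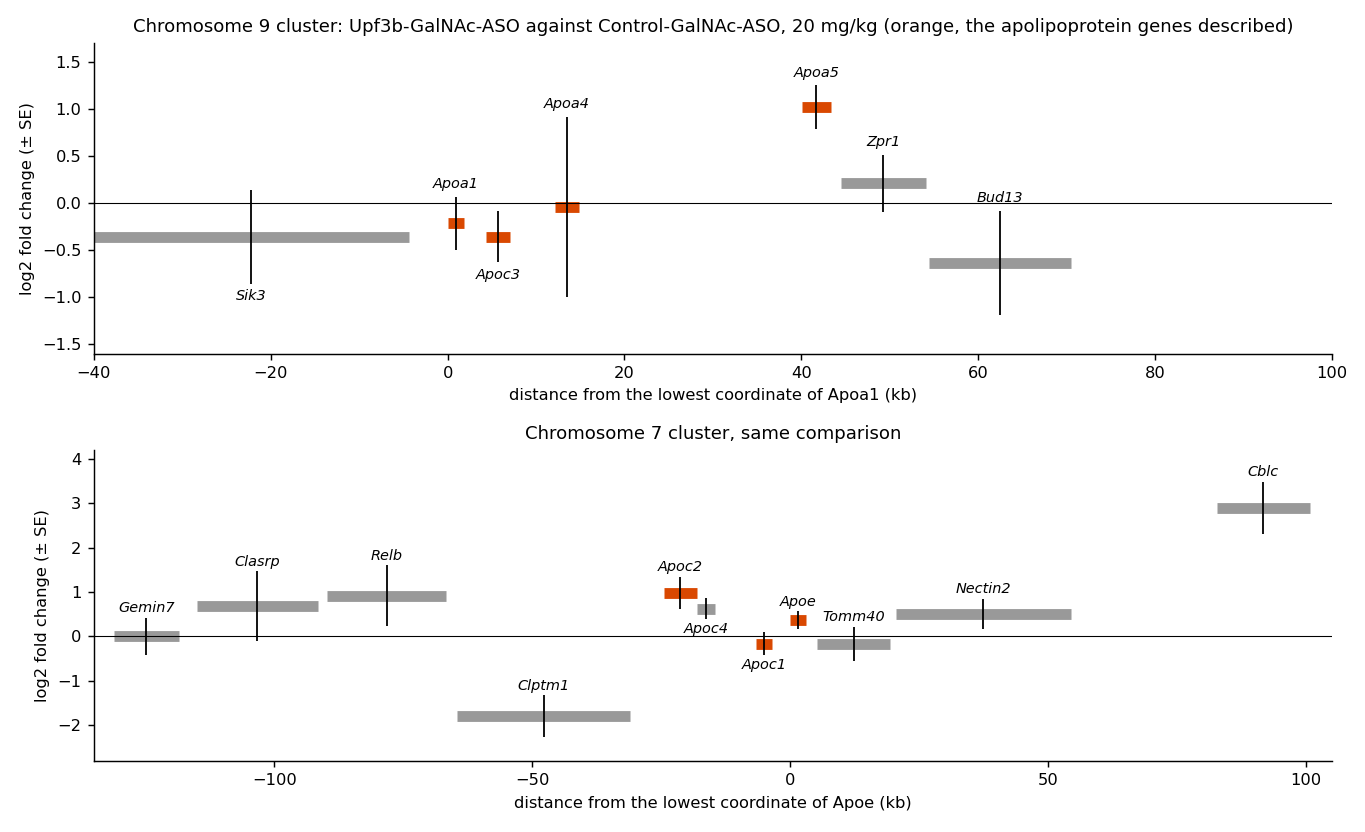
Bars show the position of each tested gene in kb from the lowest coordinate of *Apoa1* (upper panel, chromosome 9) or *Apoe* (lower panel, chromosome 7), at the height of its log2 difference between *Upf3b*-GalNAc-ASO and Control-GalNAc-ASO at 20 mg/kg, with the SE as a line; *Sik3* runs past the left edge. *Apoa5*, at 1.01, stands above the other genes of its panel, which lie between -0.64 and 0.21.

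Lists of other genes of lipoprotein handling were counted in the same fits. Over all genes tested against the control ASO, 0.295% were called at the lower dose and 2.52% at 20 mg/kg. Of 12 further apolipoprotein genes 9 were tested at either dose. One fell at 20 mg/kg against the control ASO, *Apof*, which encodes an inhibitor of lipid transfer, by 0.89 (SE 0.23, adjusted p = 0.0468). Against DPBS at 20 mg/kg 0 of 9 tested were called. There *Apof* overlapped, at 4569 to 6419 TPM in treated mice and 4686 to 14950.5 TPM with DPBS. At the lower dose against its control ASO 0 were called and all 9 lay below 0, with a list median of -0.51. The lowest was *Apon* at -1.20 (SE 0.35, adjusted p = 0.138). The list median at 20 mg/kg against the control ASO was 0.16. The 15 mg/kg control itself had 8 of 9 tested above DPBS, with a median of 0.63. At 10 mg/kg against DPBS 6 of 9 lay below 0, with a median of -0.23 and 0 called.

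Of 11 genes of lipases and lipid transfer, 10 were tested at the lower dose and 9 at 20 mg/kg. Among them *Lipc*, which encodes hepatic lipase, fell at both doses. Its level was at 0 to 0.980 TPM with *Upf3b*-GalNAc-ASO at 10 mg/kg and at 0 to 2.44 TPM at 20 mg/kg. By estimate these were 0 to 3 and 0 to 5 reads a mouse. The control ASO groups lay between 60.8 and 107 TPM and between 25.9 and 138 TPM, and DPBS between 27.0 and 114 TPM, so no treated mouse overlapped them. The fitted differences from the control ASO were -5.86 (adjusted p = 9.01e-05) and -5.47 (adjusted p = 7.99e-06), and their size depends on the 1 TPM added before the logarithm. *Pon1*, which encodes an esterase carried on high density lipoproteins, fell at 20 mg/kg against the control ASO by 1.11 (SE 0.27, adjusted p = 0.0316). At the lower dose it differed by -1.10 (SE 0.32, adjusted p = 0.147). Against DPBS at 20 mg/kg *Lipc* was the 1 gene of this list called. There *Pon1* overlapped, at 52.4 to 187 TPM in treated mice and 143 to 490 TPM with DPBS.

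With 0.295% and 2.52% of all genes called at the lower dose and at 20 mg/kg, short lists would hold few calls or 0. None of the receptor genes was called at either dose, of 8 tested. Nor was any gene of lipoprotein assembly and sterol export, of 14 tested at the lower dose and 13 at 20 mg/kg. The smallest p among the assembly and export genes at the lower dose was that of *Pla2g12b*, known for its part in the lipid loading of very low density lipoproteins, at 1.07 (SE 0.35, adjusted p = 0.189). Of the transcription factors known to act on apolipoprotein promoters, 17 and 18 were tested and 0 called. The nearest at 20 mg/kg were *Foxa2* at -1.72 (SE 0.49, adjusted p = 0.0687) and *Srebf2* at 0.82 (SE 0.25, adjusted p = 0.0831).

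**Figure D5:**
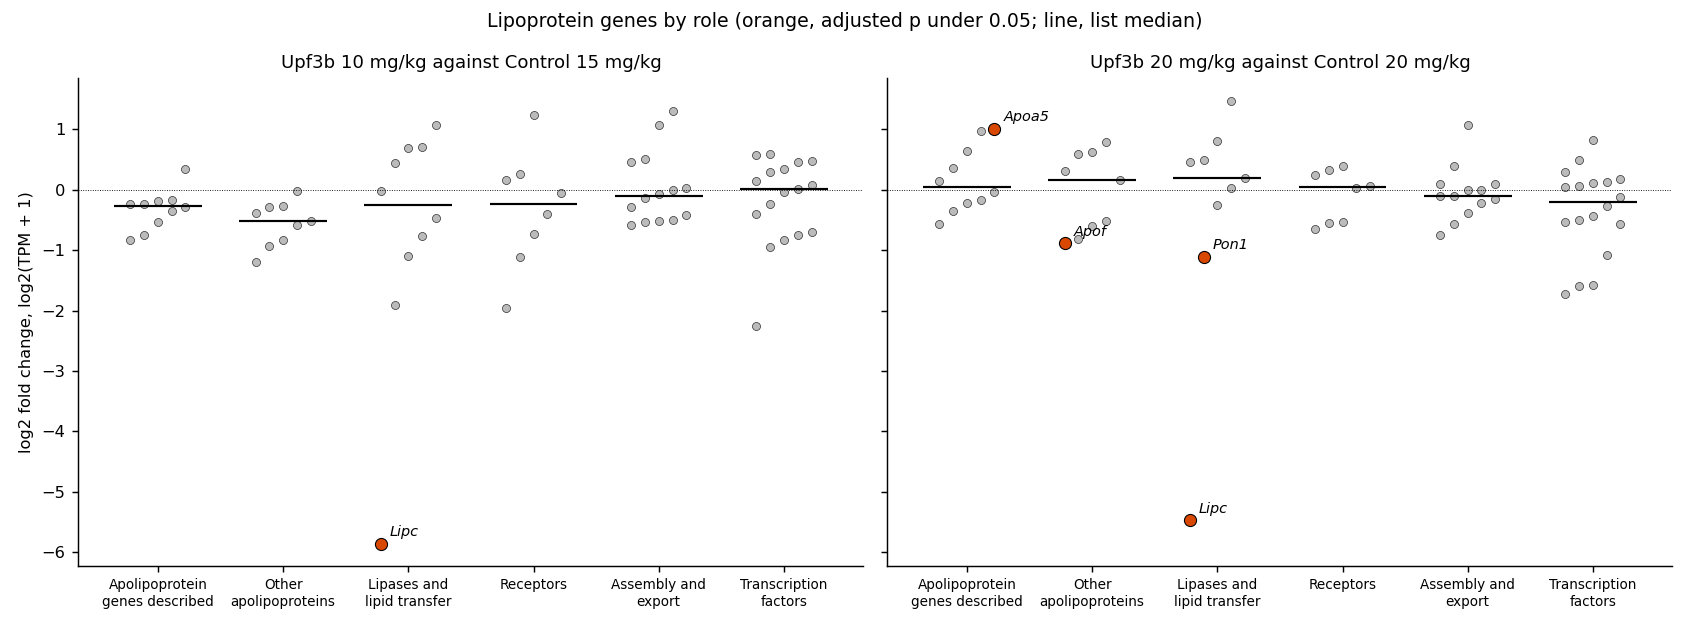
Points are log2 differences of single genes by role, at the lower dose (left) and at 20 mg/kg (right), each against its control ASO, with a line at the list median and orange for an adjusted p under 0.05. *Lipc* lies far below all others at both doses (-5.86 and -5.47), and *Apoa5* is the one orange point above 0.

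The tissue label was checked with marker genes. The 8 hepatocyte markers summed to 19482 to 68605 TPM, and Kupffer cell, endothelial and stellate cell markers were present at lower sums. Of markers of other organs, *Alpi* of the intestine, *Prss2*, *Cpa1*, *Ctrb1* and *Pnlip* of the pancreas and *Lep* of fat were at 0 in every mouse. Other genes of the same lists were not. *Fabp2* of the intestinal list was at 11.7 to 166 TPM, *Cela1* of the pancreas list at 89.3 to 525 TPM, and the fat list summed to up to 63.9 TPM, all of it *Cidec* in the mouse with the high *Saa1* value. In liver RNA, fewer cells of a type and less RNA per cell cannot be told apart.

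At the lower dose all 8 hepatocyte markers lay below the control ASO, with a median of -0.79. Of these 1 was called, where 0.295% of all genes were: *Tat* fell by 1.99 (SE 0.34, adjusted p = 0.0237). The marker sum was 19482 to 60699 TPM with *Upf3b*-GalNAc-ASO and 46205 to 58395 TPM with the control. Against DPBS the treated mice also had all 8 below 0, with a median of -0.35 and 0 called. The 15 mg/kg control had 6 of the 8 above DPBS, with a median of 0.39. *Tat* was at 108 to 229 TPM in treated mice, 436 to 1063 TPM in these controls and 122 to 897 TPM with DPBS. The apolipoprotein values below 0 against the control ASO at this dose stand beside the marker shift, and its part in them was not tested. Of the 8 markers 7 lay at 20 mg/kg below 0, with a median of -0.19 and none called, and the sum was 35358 to 56740 TPM against 28863 to 61444 TPM. *Pecam1* of the endothelial list rose by 1.27 (SE 0.28, adjusted p = 0.0201), while the other 4 lay below 0 and the list median was -0.56. The endothelial sum of 1508 to 2232 TPM against 624 to 1683 TPM was mostly *Pecam1*, at 1485 to 2022 TPM against 429.8 to 1489.9 TPM, and against DPBS the *Pecam1* difference was 0.69 (SE 0.35, adjusted p = 0.441). Its part in the *Apoa5* and *Apoc2* values was not tested.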

How the data were processed

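Liver RNA of 31 mice was sequenced, 1 library a mouse. Per the labels and methods, the authors converted the runs with bcl2fastq 2.17.1.14 and quantified reads with Salmon 0.7.2 against Ensembl mouse cDNA build 81 (GRCm38), and deposited a TPM value per gene symbol and mouse. The labels name a QuantSeq 3′ kit and the methods a TruSeq kit. From 70.2% to 81.6% of values were whole reads within 0.02 reads, without division by length, and 3 reads equalled 0.406 to 2.94 TPM, a limit that covers counting error only.

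From 31198 rows, 26 with dates in place of symbols were dropped. The number of unused per-sample columns was 0. Groups, sex and replicate numbers came from the labels, which do not say that equal numbers mark a pair. A gene entered a comparison where the median of any group compared reached 5 TPM. The test was limma 3.58.1 (R 4.3.3) on log2(TPM + 1), with trend, robust variances and sex as a covariate and only the groups compared in the fit. A Benjamini-Hochberg adjusted p under 0.05 made a call. The method was tested on simulated data. Deviations of same-numbered mice from their group means correlated at r from -0.26 to 0.36 over single pairs, with means of -0.084 to 0.064 by comparison, and in no comparison were all pairs above 0.1. The text names the 10 genes, genes of the pathway and marker lists that were called or had the smallest p-values, and the most similar gene of each. *Saa2*, *Cidec*, *Gm44805* and the neighbours of the gene clusters were named after values were seen. Members and lists were chosen with earlier results of these data known. Alternatives were other pseudocounts, filters, scalings, models, a replicate block and leaving out each mouse. Samples given *Upf1*-GalNAc-ASO were not analysed here.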

Additional observations from a re-analysis of the deposited data

Results flagged for a closer look

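In 5 of 40 sets of values, 1 gene in 1 group of 4 to 6 mice, the highest or lowest mouse lay further from the rest than Dixon's 95% limit allows, and chance gives about 1 in 20. With *Upf3b*-GalNAc-ASO at 20 mg/kg, *Apoa4* was at 872 TPM in replicate 2, and the nearest mouse was at 46.4 TPM. With *Upf3b*-GalNAc-ASO at 10 mg/kg, *Apoe* was at 1609 TPM in the library labelled replicate 3, the smallest, and the nearest mouse was at 4982 TPM. With Control-GalNAc-ASO at 20 mg/kg, *Apob* was at 505 TPM in replicate 4, with the nearest at 188 TPM. With Control-GalNAc-ASO at 15 mg/kg, *Apoc1* was at 1438 TPM in replicate 2, with the nearest at 1745 TPM, and *Apoe* was at 5569 TPM in replicate 4, with the nearest at 4741 TPM.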

How the results depend on the processing

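The number of the 10 genes called at 20 mg/kg against the control ASO, 1, became 0 with no filter on low values (*Apoa5* adjusted p = 0.0546), with limma's variances fitted without trend and robust (0.105) and with the replicate block (0.245). Against DPBS the number, 2, became 1 with no filter, with no sex covariate and with a rule of 2-fold and unadjusted p up to 0.01, and 0 without trend and robust and with the replicate block (*Apoa5* adjusted p = 0.204, *Apoc2* 0.405). Replicate numbers are shared by groups, but some same-numbered pairs correlated below 0 in every comparison (single pairs from -0.26 to 0.36), so the numbers were not taken as a pairing and the block values stand as an alternative. The block fit also kept only mice whose number occurs in both groups. At 20 mg/kg this left out control replicate 3, and DPBS replicates 3 and 7 to 11 in the comparison with DPBS. The block values thus also come from fewer mice, and the 2 changes were not separated. With the block, 45 genes in all were called at 20 mg/kg against the control ASO and 42 against DPBS. Quality weights gave 388 at the lower dose against its control. With sample quality weights 1 gene was called for the 15 mg/kg control against DPBS (*Apoc2*, 1.02, adjusted p = 0.0384) and 1 between the sexes (*Apoh*, -0.86, adjusted p = 0.0311). Leaving out single mice gave 0 to 1 for the first number and 0 to 2 for the second. The cause was not tested.

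Of 913 values of single genes under the other settings 872 kept direction and side of the threshold, 29 changed sign, 10 lost a call and 2 gained one. Of 1265 with a mouse left out, 1177 kept both, 70 changed sign and 18 lost a call. At the lower dose against its control, quality weights gave 0.18 for *Apoc2* and 0.057 for *Apoe*. At 20 mg/kg against the control ASO, *Apoa4* was 0.0061 with a pseudocount of 5, 0.064 with median-of-ratios scaling, 0.0090 with no sex covariate or with all 31 mice in 1 fit, and 0.0025 with the replicate block. For the 15 mg/kg control against DPBS, the block gave -0.029 for *Apoa1*, -0.012 for *Apoa5* and -0.43 for *Apob*. For the 20 mg/kg control against DPBS, *Apoa2* was -0.012 with quality weights, -0.10 with median-of-ratios, -0.0087 with no sex covariate, -0.0060 in 1 fit and -0.022 with the block. There *Apoc3* was -0.059 with median-of-ratios, and *Apoa1* 0.026 and *Apoc1* 0.050 with quantile scaling. At 10 mg/kg against DPBS, quality weights gave 0.25 for *Apoa2*, -0.18 for *Apob*, 0.17 for *Apoc1* and 0.11 for *Apoe*, and the block -0.30 for *Apob*. At 20 mg/kg against DPBS, *Apoa4* was -0.40 with quality weights and *Apoa2* -0.083 with the block. In the dose difference *Apoh* was 0.0066 with quality weights and 0.062 with median-of-ratios, and *Apoc1* -0.0051 with quantile scaling. Between the sexes *Apoe* was 0.0083 with median-of-ratios.

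With each mouse left out, the signs that changed had these ranges. At the lower dose against its control, *Apob* ran from -0.72 to 0.14, *Apoc2* from -0.43 to 0.31, *Apoc1* from -0.47 to 0.010 and *Apoe* from -0.49 to 0.19. At 20 mg/kg *Apoa4* ran from -0.95 to 0.49 against the control ASO and from -0.78 to 0.62 against DPBS. For the 15 mg/kg control against DPBS, *Apob* ran from -0.032 to 0.84, *Apoa5* from -0.035 to 0.12 and *Apoe* from -0.00055 to 0.089. For the 20 mg/kg control, *Apoa2* ran from -0.059 to 0.078, *Apoa4* from -0.049 to 0.31, *Apob* from -0.43 to 0.14, *Apoc3* from -0.045 to 0.13, *Apoa5* from -0.16 to 0.013, *Apoa1* from -0.17 to 0.10 and *Apoc1* from -0.11 to 0.055. At 10 mg/kg against DPBS, *Apoa2* ran from -0.12 to 0.26, *Apob* from -0.29 to 0.52, *Apoc1* from -0.26 to 0.16 and *Apoe* from -0.37 to 0.23. In the dose difference *Apoh* ran from -0.23 to 0.082, *Apoc1* from -0.18 to 0.26 and *Apoa4* from -0.12 to 1.38, and between the sexes *Apoc2* from -0.33 to 0.073, *Apoa1* from -0.22 to 0.15 and *Apoe* from -0.13 to 0.033.

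The smallest library held an estimated 1020676 reads, where 3 reads are 2.94 TPM, so low values there are the least certain. The labels do not say whether mice shared a litter or a day.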
